A study of Mus musculus with 15 samples.

Results

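Lesional foam cells of mice given western-type diet over a period of 2 weeks (2w-WD, 5 arrays) were compared with those of mice kept on chow (CHOW, 5 arrays), gene by gene across the genome. The 10 arrays were chosen by their sample titles out of 15 in the series. The other 5 came from mice fed the diet for longer. They entered the estimate of the spread between arrays, the choice of each gene's probe set and the filter for testing. All mice were C57BL/6 and carried the ApoE-/- genotype, so the CHOW mice too lacked the main ligand for clearing remnant lipoproteins. Foam cells were cut by laser from cross-sections of the aortic sinus, and their RNA was amplified, labelled with biotin and hybridised to Affymetrix mouse arrays. The CHOW mice ate chow for 22 weeks. In the sample labels the 2w-WD mice had 20 weeks on chow and then 2 weeks on western-type diet, while the series text places the diet between weeks 22 and 24. If the second holds, the groups differed in age as well as in diet, and the effects of age and diet cannot be told apart. No label links an array to an animal, so every p-value rests on the scatter among these arrays, part of which may be technical. The comparison asks what a short exposure to the diet does to macrophages that are already in a lesion.

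Foam cells form when macrophages of the arterial wall take up modified lipoproteins through scavenger receptors and digest them in lysosomes. Acid lipase frees the cholesterol, the NPC proteins move it out of the lysosome, and it is then stored as ester in droplets or exported by ABC transporters under control of the liver X receptors. The same cells clear dying neighbours, present antigen and secrete interleukin-1 family cytokines and chemokines that draw in monocytes.

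Some markers of the labelled cell type were bright in the captured RNA and others were not. On the log2(intensity + 16) scale used throughout for levels, Csf1r, the receptor for macrophage colony-stimulating factor, lay between 13.80 and 14.49 on the 10 arrays. Lyz2, the macrophage lysozyme, lay between 13.41 and 14.12. Cd68, a glycoprotein of macrophage endosomes, read 11.96, 12.51, 11.38, 11.45 and 10.31 on CHOW replicates 1 to 5, and 10.86, 10.69, 11.26, 10.35 and 10.63 on 2w-WD replicates 1 to 5. Itgam, the integrin chain of the CR3 receptor, averaged 5.07 and 4.80 and lay under the level of 5.66 (an intensity of 34.6) that a gene needed to be tested. Spi1, another macrophage marker, lay under it too (5.26 in CHOW and 5.10 in 2w-WD). Cd14 averaged 7.42 and 6.61, and Aif1 6.16 and 5.43. Apoe, the gene disrupted in all mice, ran from 4.14 to 5.65 in CHOW and from 4.61 to 5.41 in 2w-WD, also under that level. Whether its probe set lies in the disrupted stretch was not analysed. Heart muscle transcripts were bright as well: Myh6, the cardiac myosin heavy chain, lay between 13.81 and 14.69 on every array except CHOW replicate 4, where it read 9.98. So were fibroblast and smooth muscle genes. Col1a2 averaged 13.82 in CHOW and 13.60 in 2w-WD, Col3a1 13.55 and 13.40, and Acta2 13.53 and 13.23.

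The arrays were not equally bright. Probe sets brighter than an intensity of 100 made up a share that ran from 20.4% to 24.7% in CHOW and from 18.2% to 25.7% in 2w-WD. Relative to the mean of the CHOW arrays, the median gene lay 0.31 lower on 2w-WD replicate 4 (-0.31) and 0.16 higher on 2w-WD replicate 1. On the CHOW arrays the same median ran from -0.05 to 0.07. Correlations between pairs of arrays ran from 0.862 to 0.962, and no 2 arrays were identical. The spread within 2w-WD was the wider one: its median SD over genes was 0.51 against 0.43 in CHOW, and 60.7% of genes had the larger SD in 2w-WD. Their part in the results below was not tested beyond the values given with and without arrays.

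Across the genome, limma called 0 of 11925 genes at a Benjamini-Hochberg adjusted p under 0.05 (0% of genes tested). The smallest adjusted p was 0.292, shared by Panx1 and 1 gene with a clone name, and every other gene had 0.48 or more. With p taken before adjustment and under 0.05, 1164 genes remained (9.76%), of which 870 had the lower mean in 2w-WD (7.30%) and 294 the higher (2.47%). The 10 arrays did not overlap in 134 genes (1.12%), with 2w-WD entirely below CHOW in 99 (0.830%) and entirely above it in 35 (0.294%). A lean to the lower side ran through the whole distribution. The median log2 difference, 2w-WD minus CHOW, was -0.10 with quartiles of -0.36 and 0.14, and 61.2% of genes lay below 0. The median SE of a difference was 0.29. A difference below -1 was measured for 341 genes and one above 1 for 167. With genes ranked by level into 4 equal bins, the brightest bin held 320 lower and 96 higher genes at an unadjusted p under 0.05, and the dimmest 138 and 76.

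The genes on the lower side leaned on a few arrays. Of the 870, 523 (60.1%) had their lowest value on 2w-WD replicate 4, an array that was lowest for 27.3% of all genes, and 436 (50.1%) had their highest value on CHOW replicate 1, against 20.6% of all genes. Without 2w-WD replicate 4 the lower genes numbered 464, of which 415 were among the 870. Leaving out 2w-WD replicate 2 gave 518 lower genes, leaving out CHOW replicate 1 gave 577, and leaving out 2w-WD replicate 1 gave 1753. All 870 kept the sign of their difference with any 1 of the 10 arrays left out. As they were chosen by p on these same arrays, that outcome was nearly fixed in advance and is no support. On the higher side 125 of 294 genes (42.5%) had their highest value on 2w-WD replicate 1, against 22.5% of all genes, and the count ran from 212 to 422 as arrays were left out.

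**Figure D1:**
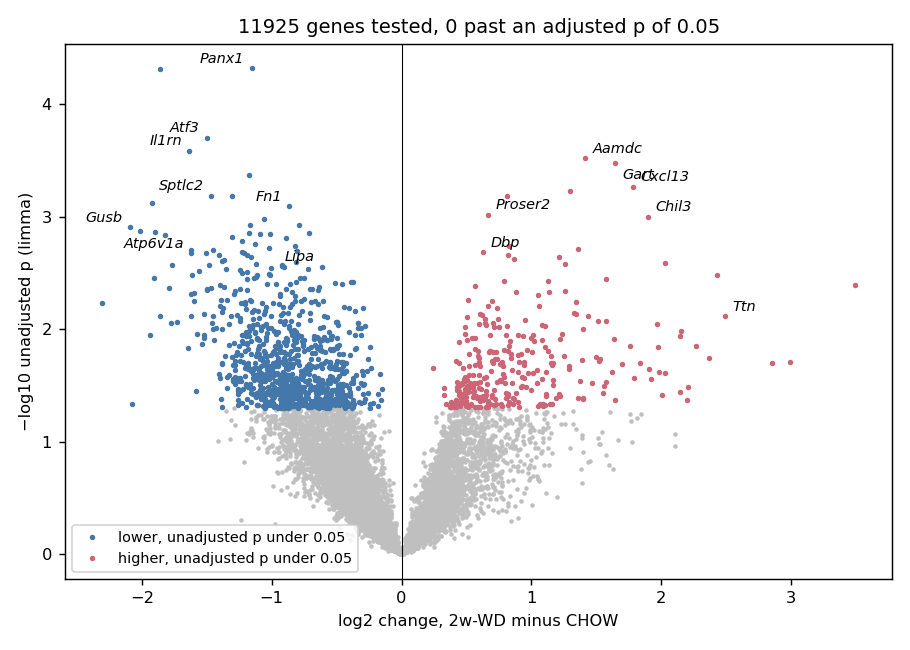
Log2 difference (2w-WD minus CHOW, horizontal) against −log10 of the unadjusted limma p (vertical) for 11925 genes. The 870 blue points are lower and the 294 red points higher in 2w-WD at an unadjusted p under 0.05; none passed adjustment, and the widest differences lie on the higher side.

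On the lower side, Panx1 had the smallest p. It encodes pannexin 1, a membrane channel that lets ATP out of cells. Panx1 read 6.30, 7.02, 7.08, 6.70 and 6.12 on CHOW replicates 1 to 5, and 5.43, 5.85, 5.29, 5.34 and 5.53 on 2w-WD replicates 1 to 5. The groups did not overlap, and the 2w-WD mean of 5.49 lay under the level needed for testing, so this was a difference between a dim gene and a dimmer one (-1.15, SE 0.21). Atf3, a stress-induced transcription factor that restrains inflammatory genes, read 8.58, 7.49, 6.86, 7.73 and 7.54 in CHOW and 6.75, 6.14, 6.40, 5.70 and 5.72 in 2w-WD. Il1rn, which encodes the antagonist that blocks the interleukin-1 receptor, read 9.82, 8.35, 8.87, 9.20 and 8.13 in CHOW and 7.16, 7.69, 7.29, 6.87 and 7.19 in 2w-WD. Neither gene's groups overlapped, with differences of -1.50 (SE 0.32) and -1.63 (SE 0.36). The other probe sets of Il1rn above the filter leaned the same way (-0.54 and -0.18). Adjusted p was 0.48 for both genes.

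Fam102a read 6.75, 6.31, 7.0, 6.61 and 6.01 in CHOW and 5.97, 4.94, 5.46, 4.89 and 5.53 in 2w-WD. Map2k1, which encodes the kinase MEK1 of the ERK pathway, read 7.74, 6.62, 5.64, 6.31 and 5.53 in CHOW and 4.91, 5.33, 5.12, 4.97 and 4.99 in 2w-WD. In both genes the highest 2w-WD array lay just under the lowest CHOW array. Their 2w-WD means of 5.36 and 5.06 lay under the level needed for testing. Sptlc2, a subunit of serine palmitoyltransferase, read 10.54, 10.10, 9.67, 9.51 and 8.72 in CHOW and 8.73, 7.62, 8.52, 7.85 and 8.47 in 2w-WD, so that 1 array of each group met. Its other 2 probe sets above the filter went the other way (0.50 and 0.40). Fn1, the matrix protein fibronectin and a bright gene, read 13.41, 13.12, 13.15, 13.51 and 13.56 in CHOW and 12.39, 12.28, 12.82, 11.70 and 13.21 in 2w-WD. In 2w-WD only replicate 5 reached the CHOW range (difference -0.87, SE 0.21).

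The rest of the leading 12 lower genes by p were Cep83, a centriole protein gene (-1.92, SE 0.47), Lin7c, a cell polarity scaffold (-1.06, SE 0.27), Kdm7a, a histone demethylase (-0.79, SE 0.20), Sel1l3 (-1.16, SE 0.30) and Gusb. Gusb, which encodes the lysosomal beta-glucuronidase, read 10.45, 9.91, 9.10, 9.21 and 7.73 in CHOW and 8.14, 7.66, 7.85, 5.43 and 6.84 in 2w-WD. Its range was wide in both groups, and CHOW replicate 5 and 2w-WD replicates 1 and 3 overlapped (difference -2.09, SE 0.54). Among genes whose groups did not overlap, wide differences were also measured for Sec24d, a coat subunit of vesicles that leave the endoplasmic reticulum (-1.51, SE 0.42), Alg11, a mannosyltransferase of N-glycan assembly (-1.46, SE 0.50), Lgmn, the lysosomal protease legumain (-1.38, SE 0.39) and Atp6v1h, a part of the pump that acidifies lysosomes (-1.38, SE 0.44). Atp6v1h read 8.72 on CHOW replicate 1 and between 5.97 and 6.62 on the other CHOW arrays. Its other probe set above the filter gave 0.14. Under quantile normalization the difference of Atp6v1h was 0.22. Each setting chose the probe set anew by its highest mean, and the means of both over 15 arrays were 6.61 and 6.58. Whether the probe set changed in that setting was not tested, so no direction can be given.

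On the higher side, Aamdc had the smallest p. It read 8.92, 8.88, 7.82, 7.90 and 8.00 in CHOW and 10.28, 9.62, 9.12, 9.78 and 9.80 in 2w-WD. The lowest 2w-WD array lay above the highest CHOW array, with a difference of 1.42 (SE 0.31). Gart, a trifunctional enzyme of purine synthesis, read 6.77, 7.04, 7.0, 6.80 and 5.51 in CHOW and 9.15, 8.38, 8.62, 7.13 and 8.05 in 2w-WD (difference 1.65, SE 0.37). The groups did not overlap, but its other 2 probe sets above the filter gave -0.06 each.

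Cxcl13, the chemokine that draws B cells, read 6.23, 6.11, 6.43, 5.22 and 5.78 in CHOW and 6.85, 7.70, 7.95, 8.05 and 8.13 in 2w-WD. Every 2w-WD array lay above every CHOW array (1.78, SE 0.42), whereas a second probe set of Cxcl13 gave 0.09. Chil3, the chitinase-like protein Ym1 of alternatively activated macrophages and neutrophils, read 6.46, 4.80, 5.74, 7.05 and 5.97 in CHOW and 8.05, 6.69, 8.91, 7.58 and 8.31 in 2w-WD. Here 2w-WD replicate 2 lay within the CHOW range (1.90, SE 0.48).

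Dbp, a transcription factor driven by the circadian clock, was the brightest of the 12 higher genes. It read 12.08, 12.50, 11.64, 11.81 and 11.95 in CHOW and 12.84, 12.80, 12.24, 12.82 and 12.42 in 2w-WD, with overlap at 2w-WD replicates 3 and 5 (0.63, SE 0.17). The other 7 were Pifo, a gene of primary cilia (0.81, SE 0.20), Proser2 (0.67, SE 0.17), Dnhd1, a dynein heavy chain domain gene (0.83, SE 0.23), Camk1d, a calcium/calmodulin-dependent kinase (1.36, SE 0.37), Calml4 (0.82, SE 0.23), Plpp6, a lipid phosphatase (1.21, SE 0.34), and Mbd3l2 (0.87, SE 0.24). All 12 had an adjusted p of 0.48. The CHOW means of Proser2 (5.40), Mbd3l2 (5.27), Pifo (5.95) and Calml4 (5.88) lay near the level needed for testing, where the pseudocount holds differences small. Of the 294 higher genes, 47 had a CHOW mean under that level, and 138 of the 870 lower genes had a 2w-WD mean under it. Lower genes named above with such a 2w-WD mean include Sel1l3 (5.6), Alg11 (5.06) and Atp6v1h (5.42). Among those named below are Aif1 (5.43), Vasp (5.13), Manf (5.42), Tmem192 (4.94) and Relb (4.85).

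**Figure D2:**
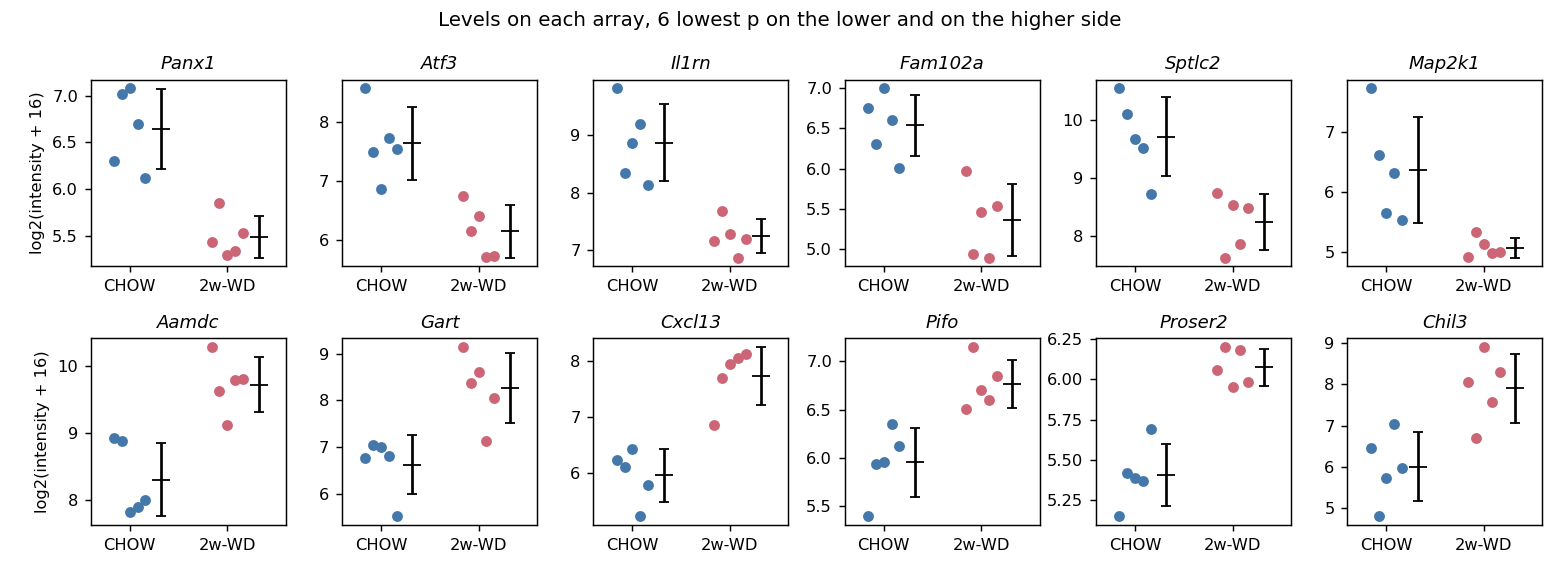
Levels on each array (log2(intensity + 16), vertical, a separate scale for each gene) for the leading 6 genes by p on the lower side (top row) and on the higher side (bottom row). Points are the 5 CHOW (blue) and 5 2w-WD (red) arrays, with mean and SD in black; Sptlc2 and Chil3 are the pairs of groups that overlap.

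Sorted by size instead of p, and chosen after their values were seen, the widest differences were those of genes whose 2w-WD or CHOW arrays disagreed among themselves. Mapk10, the neuronal and cardiac stress kinase JNK3, read 7.57, 6.98, 4.5, 4.15 and 4.97 in CHOW and 11.55, 7.99, 9.81, 11.11 and 5.16 in 2w-WD (3.49, SE 1.05). Sln, the atrial calcium pump regulator sarcolipin, read 12.99, 12.60, 12.47, 6.66 and 5.55 in CHOW and 13.91, 11.52, 13.14, 13.40 and 13.26 in 2w-WD (2.99, SE 1.16). For Sln the gap came from CHOW replicates 4 and 5, while the other 3 CHOW arrays lay within the 2w-WD range. Slfn4, a schlafen gene of the myeloid lineage, read 4.72, 5.61, 6.40, 7.53 and 6.36 in CHOW and 6.83, 6.11, 10.76, 7.22 and 11.03 in 2w-WD (2.27, SE 0.83). Only 2w-WD replicates 3 and 5 stood above the CHOW range of Slfn4, the same arrays on which the mean of the neutrophil list was highest. Most of the other genes among the 15 widest on the higher side belong to striated muscle, among them Myl4, Ttn, Myl7, Actn2, Smpx, Trdn and Csrp3.

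Exoc1, a subunit of the exocyst that tethers secretory vesicles, had the widest difference on the lower side (-2.31, SE 0.73). It read 9.87, 7.86, 7.21, 9.76 and 6.20 in CHOW and 6.06, 4.29, 6.93, 4.28 and 7.81 in 2w-WD, and the groups overlapped. Bace2, a membrane aspartyl protease, read 9.72, 10.39, 9.69, 9.80 and 8.94 in CHOW and 9.52, 7.33, 7.85, 6.32 and 7.43 in 2w-WD (-2.01, SE 0.53), where 2w-WD replicate 1 lay within the CHOW range. Nox4, an NADPH oxidase that makes hydrogen peroxide, read 8.13, 7.04, 8.91, 8.30 and 7.40 in CHOW and 7.38, 5.33, 4.83, 5.17 and 8.10 in 2w-WD (-1.79, SE 0.54). Taldo1, the transaldolase of the pentose phosphate pathway, differed by -1.77 (SE 0.50) and Cspg4, the proteoglycan NG2 of pericytes, by -1.94 (SE 0.68). In Exoc1 and Bace2 the lowest 2 arrays of all 10 were 2w-WD replicates 2 and 4.

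For the biology behind the single genes, 60 gene lists with 1066 members were described, of which 845 genes were tested. The lists and their members were chosen with earlier results of these arrays known, so their counts are descriptions. The median difference lay below 0 in 48 lists and above 0 in 12, and 38 lay below the median of all genes tested (-0.10). The most negative medians were those of iron and heme handling (-0.58) and lysosomal glycoside hydrolases (-0.54), and the highest those of heart muscle (1.13) and neutrophil genes (0.44). No member of any list passed adjustment over all genes tested. Each list's counts are to be read against all genes tested, of which 61.2% lay below 0 and, at an unadjusted p under 0.05, 7.30% were lower and 2.47% higher. Some genes, such as Galc, Hexa, Ctsk and Itgax, are members of more than 1 list.

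**Figure D3:**
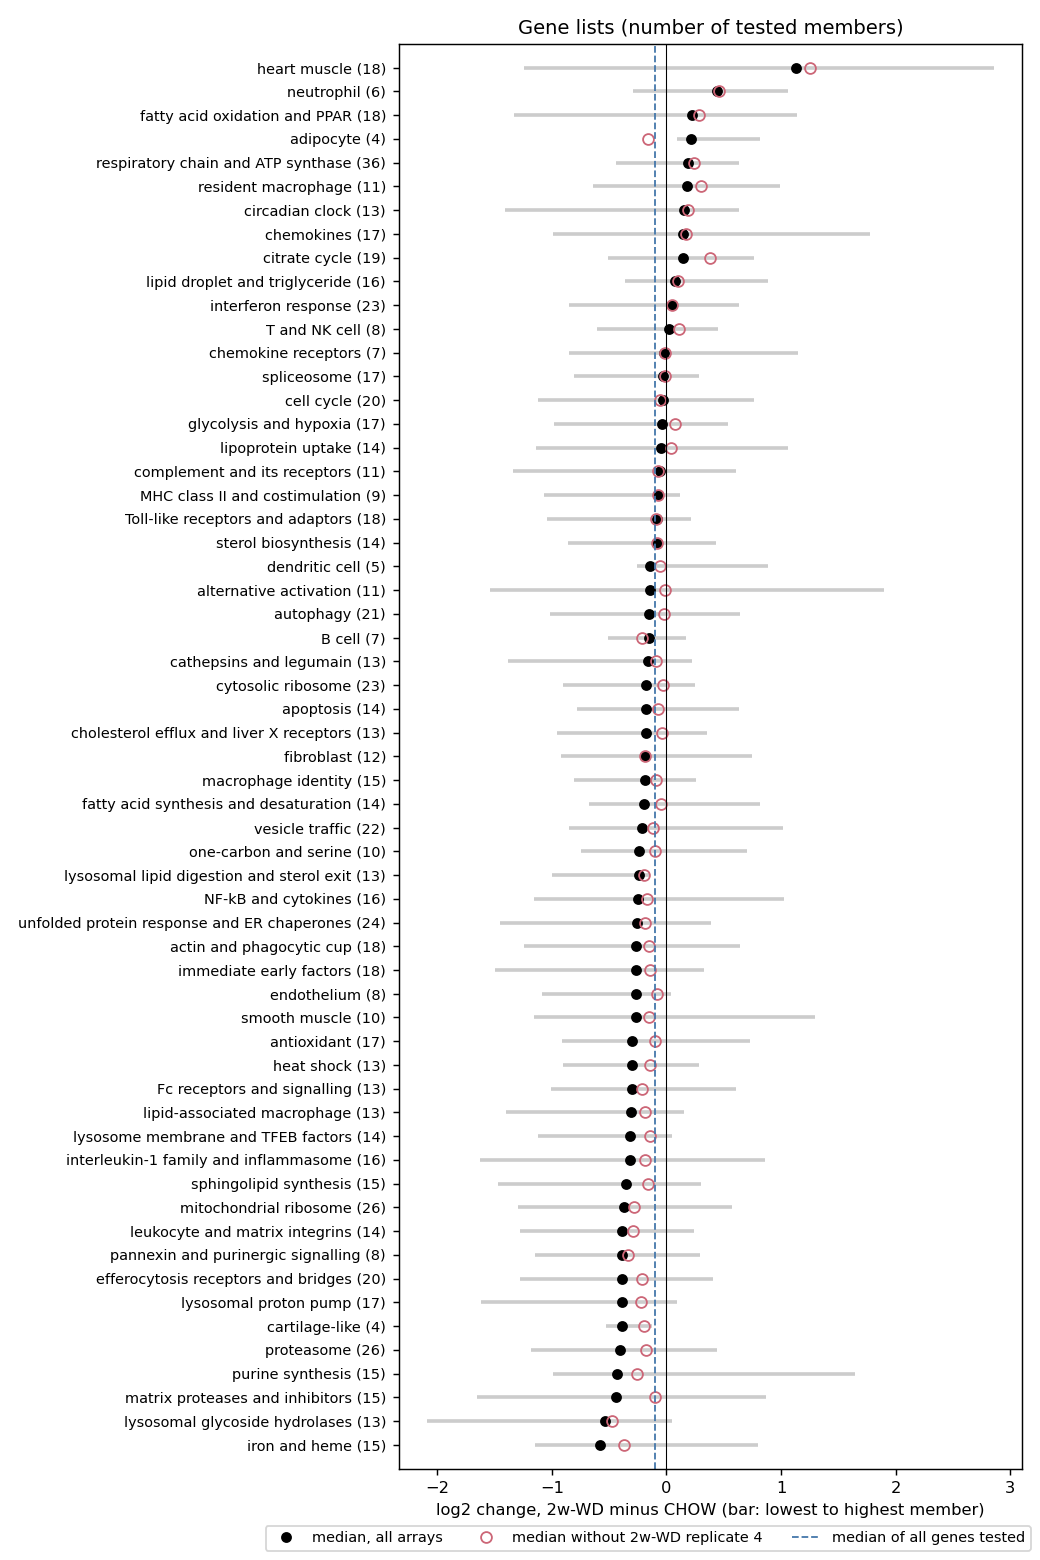
Median log2 difference (2w-WD minus CHOW) of each list with more than 2 tested members, over all arrays (black) and without 2w-WD replicate 4 (open red), with the lowest and highest member as a grey bar. Iron and heme handling (-0.58) lies at the bottom and heart muscle (1.13) at the top; the dashed line is the median of all genes tested (-0.10).

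Lysosomal genes lay mostly on the lower side. Glycoside hydrolases, which cut sugars from glycoproteins and glycolipids, had 12 of 13 members below 0, with 3 at an unadjusted p under 0.05 against a background of 7.30%: Gusb, Galc (-1.0, SE 0.45) and Hexa (-0.15, SE 0.07). Hexa, the beta-hexosaminidase alpha chain and a very bright gene, read 14.18, 14.36, 14.16, 14.11 and 14.18 in CHOW and 14.06, 14.02, 14.13, 13.92 and 14.10 in 2w-WD. The groups of Hexa nearly separated, although the difference was small. Without 2w-WD replicate 4 the list had 1 lower call. The other members ran from -0.76 for Aga, the aspartylglucosaminidase, to 0.05 for Fuca2.

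The proton pump that acidifies lysosomes had 15 of 17 subunits below 0 and 6 at an unadjusted p under 0.05, against 7.30% of all genes. Atp6v1a, the catalytic subunit, read 10.76, 9.51, 10.26, 9.98 and 8.27 in CHOW and 9.03, 8.05, 8.47, 6.76 and 8.36 in 2w-WD (-1.62, SE 0.45). Only CHOW replicate 5 lay within the 2w-WD range of Atp6v1a, and its second probe set differed by -0.55. Atp6v1b2, the B subunit, read 12.97, 12.65, 12.59, 12.65 and 12.25 in CHOW and 12.31, 12.06, 12.12, 9.67 and 12.05 in 2w-WD (-0.98, SE 0.36). Here 4 of the 5 2w-WD arrays read 12.05 or more, and replicate 4 stood far below. The pump's median was -0.39 with all arrays and -0.22 without 2w-WD replicate 4, which left 3 lower calls. Atp6v1d (0.08) and Atp6v1e1 (0.09), stalk subunits, were the 2 members above 0.

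Of cathepsins and legumain, the lysosomal proteases, 8 of 13 were below 0 and 6 had an unadjusted p under 0.05. Lgmn read 8.04, 7.28, 6.89, 6.78 and 6.64 in CHOW and 6.41, 5.56, 6.28, 5.05 and 5.42 in 2w-WD. Ctsl, the cysteine protease cathepsin L, read 13.56, 13.52, 13.58, 13.52 and 13.48 in CHOW and 13.24, 13.10, 13.39, 12.63 and 13.34 in 2w-WD (-0.39, SE 0.12). In both genes every 2w-WD array lay below every CHOW array. Ctsd, the aspartic protease cathepsin D (-0.46, SE 0.14), Ctsk (-0.84, SE 0.30), Ctsa (-0.62, SE 0.27) and Ctsb (-0.16, SE 0.07) had overlapping arrays. Ctss and Ctsc, a pair of bright cysteine proteases, differed by 0.02 each, so the proteases did not all lean the same way.

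All 13 tested genes of lysosomal lipid digestion and sterol exit were below 0, where 61.2% of all genes were, and 6 had an unadjusted p under 0.05. Their differences were small, with a median of -0.24, and leaving out 2w-WD replicate 4 or 2w-WD replicate 1 gave 3 calls each. Lipa, the acid lipase, read 13.92, 13.74, 13.57, 13.61 and 13.55 in CHOW and 13.20, 13.23, 13.44, 12.17 and 13.28 in 2w-WD. The groups of Lipa did not overlap (-0.61, SE 0.18), and its other probe sets above the filter gave -1.19 and -0.65. Psap, the precursor of the saposins that help lysosomal enzymes reach lipids, read 14.14, 14.10, 14.06, 13.96 and 14.01 in CHOW and 13.94, 13.88, 13.90, 13.46 and 13.90 in 2w-WD. Npc2, the soluble carrier that takes cholesterol from the lysosome lumen, read 14.53, 14.49, 14.52, 14.49 and 14.55 in CHOW and 14.42, 14.40, 14.42, 14.05 and 14.47 in 2w-WD. These 2 genes did not overlap either, at differences of -0.24 and -0.16. Npc1, the membrane partner of Npc2, differed by -0.55 (SE 0.37) with overlapping arrays, and Asah1, acid ceramidase, by -0.29 (SE 0.12).

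Among lysosome membrane genes and the transcription factors that drive them, 11 of 14 were below 0 and 5 had an unadjusted p under 0.05. There was 1 such gene without 2w-WD replicate 4, and the median went from -0.32 to -0.14. Lamp1, a main glycoprotein of the lysosome membrane, read 13.81, 13.70, 13.68, 13.78 and 13.66 in CHOW and 13.53, 13.37, 13.65, 12.95 and 13.56 in 2w-WD, without overlap (-0.31, SE 0.11). Lamp2, its sister protein, differed by 0.05. Clcn7, the chloride-proton exchanger (-1.12, SE 0.46), Slc38a9, the arginine sensor (-1.01, SE 0.41), and Tmem192 (-1.10, SE 0.44) had wider differences and overlapping arrays. Of the transcription factors, Tfe3 differed by -0.82 (SE 0.35), Mitf by -0.34 and Tfeb by 0.04. Over the lysosomal lists 2w-WD replicate 4 read lowest in each: its mean deviation from CHOW was -1.09 for glycoside hydrolases, -1.11 for the pump, -0.86 for cathepsins, -0.77 for lipid digestion and -1.09 for membrane genes. On the other 4 arrays of 2w-WD the same deviations ran from -0.74 to -0.17, from -0.54 to -0.14, from -0.40 to 0.04, from -0.40 to -0.12 and from -0.54 to 0.00.

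Uptake, storage and export of cholesterol showed little that stood apart from the spread. Of 14 lipoprotein uptake genes 0 had an unadjusted p under 0.05, with a median of -0.05 that was 0.04 without 2w-WD replicate 4. Cd36, a scavenger receptor for oxidised lipoprotein, read between 11.47 and 12.01 in CHOW and 11.84, 11.35, 11.85, 8.84 and 11.49 in 2w-WD, so its difference of -0.73 came with 1 low array. Its other probe sets above the filter also lay lower, by -0.25 and by -1.94. The latter averaged 9.36 (SD 0.51) in CHOW and 7.41 (SD 1.37) in 2w-WD. Msr1, the class A scavenger receptor, differed by -0.16 (SE 0.34), although it was 0.06 under quantile normalization. Lrp1, a remnant receptor that binds ApoE, differed by -0.39 (SE 0.19), while its second probe set above the filter gave 0.79, so no direction can be given. The endothelial-type scavenger receptors Stab1 and Stab2 differed by -1.02 (SE 0.55) and -1.14 (SE 0.62). Vldlr, the receptor for very low density lipoprotein, lay on the other side at 1.06 (SE 0.57).

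In the efflux and liver X receptor list 10 of 13 were below 0 and 2 had an unadjusted p under 0.05. Without 2w-WD replicate 4 it had 7 of 13 below 0 and 0 lower calls, and the median went from -0.18 to -0.04. Abca1, which exports cholesterol to apolipoprotein A-I, read 11.72, 12.62, 12.76, 12.54 and 12.60 in CHOW and 12.54, 12.57, 12.75, 12.28 and 12.63 in 2w-WD. The difference of 0.11 (SE 0.17) was -0.08 without CHOW replicate 1, so no direction can be given. Abcg1, its partner exporter, differed by -0.14 (SE 0.13) and Nr1h3, the liver X receptor alpha, by -0.32 (SE 0.20). Srebf1, a liver X receptor target that drives fatty acid synthesis, read 10.63, 10.90, 10.88, 10.77 and 10.95 in CHOW and 10.91, 9.48, 10.52, 8.17 and 10.35 in 2w-WD (-0.94, SE 0.40). The CHOW arrays of Srebf1 were tight and the 2w-WD arrays scattered. Apoc1, an apolipoprotein of the same target group, differed by -0.96 (SE 0.42).

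Sterol biosynthesis, which excess cholesterol is known to shut down through SREBP2, had 11 of 14 genes below 0, 0 at an unadjusted p under 0.05 and a median of -0.08. Dhcr7 (-0.86, SE 0.43), Insig2 (-0.86, SE 0.47) and Sqle (-0.31, SE 0.28) were among those below 0, and Hmgcs1 (0.30, SE 0.20) among the 3 above. Fatty acid synthesis also had 0 of 14, from Scd2 at -0.68 (SE 0.38) to Acacb at 0.82. Among genes of the lipid droplet and triglyceride storage, Plin2, the coat protein of foam cell droplets, read 13.25, 13.65, 13.56, 13.85 and 13.80 in CHOW and 13.36, 13.26, 13.53, 13.07 and 13.58 in 2w-WD (-0.26, SE 0.12). Plin4, a coat protein of fat and muscle, lay on the other side (0.49, SE 0.21), and the 16 genes had a median of 0.07, which was -0.13 without 2w-WD replicate 1 and -0.07 without CHOW replicate 4.

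Sphingolipid synthesis and turnover had 12 of 15 genes below 0, 3 of them at an unadjusted p under 0.05. Beside Sptlc2 these were Sgpl1, the lyase that ends sphingosine 1-phosphate (-1.40, SE 0.39), and Sgms1, a sphingomyelin synthase (-0.63, SE 0.23). The second probe set of Sgpl1 gave 0.07. Fatty acid oxidation and its PPAR regulators leaned the other way, with 10 of 18 above 0 and a median of 0.22. Hadhb, a subunit of the mitochondrial trifunctional protein, differed by 0.77 (SE 0.30). Pparg, the receptor that drives lipid uptake genes in macrophages, stood apart within that list: it read 7.57, 7.17, 6.07, 7.17 and 5.95 in CHOW and 6.66, 5.07, 5.27, 5.08 and 5.20 in 2w-WD (-1.33, SE 0.45). Only 2w-WD replicate 1 reached the CHOW range of Pparg. Adding each array's heart muscle mean to the model, after the data were seen, gave the list a median of -0.27. It was -0.15 without 2w-WD replicate 1 and 0.01 without CHOW replicate 4, so the list's lean rested on those arrays.

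Markers of macrophage identity had 12 of 15 below 0 and 5 at an unadjusted p under 0.05 (7.30% of all genes were lower), with a median of -0.19. Without 2w-WD replicate 4 the median was -0.09, with 3 lower calls. Aif1, the actin-binding protein IBA1, read 7.34, 6.19, 5.81, 5.73 and 5.74 in CHOW and 5.58, 5.38, 5.50, 5.11 and 5.57 in 2w-WD, without overlap (-0.74, SE 0.33). Mpeg1 (-0.34, SE 0.12), Tyrobp (-0.28, SE 0.10) and Lyz2 (-0.26, SE 0.10) differed by less, at levels above 13. Adgre1, an adhesion receptor used as a macrophage marker, differed by -0.02 and Csf1r by -0.01, and under quantile normalization they differed by 0.01 and 0.04. As these are bulk samples, fewer macrophages in the captured area and less RNA per macrophage cannot be told apart. Markers of resident macrophages had 7 of 11 above 0, a median of 0.18 and 0 at an unadjusted p under 0.05. Without 2w-WD replicate 1 the median was -0.04, with 7 of 11 below 0, so no direction can be given. Lyve1 (0.99) read 10.37 on that array and 6.78 to 7.70 on the other 2w-WD arrays, and Cd163 (0.80) read 10.96 there and 4.60 to 6.09 elsewhere in 2w-WD.

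Lipid-associated macrophage genes, the set of foamy Trem2-type macrophages, had 11 of 13 below 0 and 6 at an unadjusted p under 0.05, against 7.30% of all genes. This count was 2 without 2w-WD replicate 4, and the median went from -0.31 to -0.19. Cd9, a tetraspanin of these cells, read 9.59, 7.40, 7.53, 7.94 and 6.98 in CHOW and 7.41, 6.27, 6.29, 5.86 and 6.62 in 2w-WD (-1.40, SE 0.42). CHOW replicate 1 was by far the highest array of Cd9. Trem2, the lipid-sensing receptor, read 8.65, 7.83, 7.47, 7.58 and 6.34 in CHOW and 7.12, 6.45, 7.45, 6.21 and 6.54 in 2w-WD (-0.82, SE 0.41). Itgax, the integrin chain CD11c, differed by -0.48 (SE 0.20) and Lgals3, galectin-3, by -0.18 (SE 0.08). Gpnmb (-0.12, SE 0.11) and Fabp5 (0.08, SE 0.08), further defining genes of this state, differed little.

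Among receptors and bridging proteins for the clearance of dead cells 16 of 20 were below 0 and 7 of them had an unadjusted p under 0.05, against 7.30% of all genes. Only 2 genes were lower without 2w-WD replicate 4, and the median went from -0.39 to -0.21. Dock2, which activates Rac in leukocytes, read 7.52, 6.08, 5.32, 5.61 and 5.16 in CHOW and 5.08, 5.39, 4.38, 4.09 and 4.56 in 2w-WD (-1.24, SE 0.39). Its 2w-WD mean of 4.70 lay under the level needed for testing, and its other probe set above the filter gave -0.07. Anxa5, which binds exposed phosphatidylserine, read 12.95, 13.20, 13.14, 13.13 and 13.17 in CHOW and 12.67, 12.72, 12.96, 11.84 and 12.96 in 2w-WD (-0.49, SE 0.17). In Dock2 only 2w-WD replicate 2 reached the CHOW range, and in Anxa5 only replicates 3 and 5 did, at its lower edge. The receptor kinases diverged: Axl differed by -0.83 (SE 0.34), Mertk by 0.05 (SE 0.16) and Tyro3 by 0.41 (SE 0.19).

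Complement had 6 of 11 below 0 and 3 lower calls, or 1 without 2w-WD replicate 4, with the C1q chains C1qa and C1qc (-1.22, SE 0.47) apart from C1qb. C1qa read 10.84, 10.89, 10.32, 10.15 and 7.97 in CHOW and 9.03, 7.34, 9.55, 8.15 and 9.38 in 2w-WD (-1.34, SE 0.55). C1qb, the chain that completes the C1q subunit, differed by 0.03 (SE 0.09). CHOW replicate 5 was the exception in C1qa, as it lay below 4 of the 5 2w-WD arrays. Fc receptors and their signalling had 9 of 13 below 0, among them Fcgr3 (-1.01, SE 0.47), Fcgr4 (-0.36, SE 0.13) and Tyrobp.

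The interleukin-1 family and inflammasome had 11 of 16 genes below 0, and 3 at an unadjusted p under 0.05: Panx1, Il1rn and Casp1, the protease that cuts pro-interleukin-1 (-0.90, SE 0.40). P2rx7, the ATP-gated channel upstream of the inflammasome, differed by -0.71 (SE 0.34). None of the cytokines themselves had an unadjusted p under 0.05. Il1b, interleukin-1 beta, read 7.0, 6.54, 6.34, 6.30 and 6.54 in CHOW and 6.11, 5.94, 6.58, 6.80 and 7.28 in 2w-WD, with a difference of 0.00 to 2 decimals and an SE of 0.27. Il1a differed by -0.41, Il18 by -0.13 and Nlrp3, the inflammasome sensor, by 0.18. Of the purinergic list, 7 of 8 were below 0, and P2rx4, an ATP-gated channel of the lysosome, differed by -0.55 (SE 0.23).

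NF-kB factors and cytokines had 11 of 16 below 0. Relb, a subunit of the non-canonical pathway (-0.94, SE 0.35), Tnfrsf1b, a receptor for tumour necrosis factor (-1.16, SE 0.44), and Tnfaip3, the inhibitor A20 (-0.95, SE 0.45), had an unadjusted p under 0.05. The canonical subunit Rela differed by 0.13 and the inhibitor Nfkbia by -0.01. Toll-like receptors and adaptors had 11 of 18 below 0, a share near the 61.2% of all genes, with Tlr4, the lipopolysaccharide receptor, at -1.04 (SE 0.36) and Tlr13 at -0.72 (SE 0.33). Tlr4 read 8.04, 7.42, 8.19, 8.70 and 8.45 in CHOW and 7.90, 7.08, 7.09, 5.83 and 7.70 in 2w-WD.

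Chemokines lay on the other side of 0. Of 17, 12 were above it, and 3 had an unadjusted p under 0.05 on the higher side, where 2.47% of all genes did. Ccl4, a chemokine secreted by activated macrophages, read 5.25, 5.86, 5.38, 5.79 and 4.38 in CHOW and 5.89, 5.99, 6.12, 6.37 and 6.25 in 2w-WD. The groups of Ccl4 did not overlap, but the gap between them was narrow and the gene dim (0.79, SE 0.24). Ccl2, the ligand that draws monocytes through CCR2, read 6.69, 7.17, 7.0, 7.61 and 6.88 in CHOW and 6.95, 7.75, 7.61, 9.16 and 8.71 in 2w-WD (0.97, SE 0.36).

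Cxcl13, with values given above, was the third of the chemokines. Ccr2, the receptor for Ccl2 and a marker of recruited monocytes, read 5.88, 6.27, 5.95, 7.46 and 5.72 in CHOW and 6.47, 7.27, 6.83, 8.20 and 8.29 in 2w-WD (1.15, SE 0.45). For Ccr2 all 2w-WD arrays lay above 4 of the 5 CHOW arrays, and CHOW replicate 4 was the exception. Cxcl1 (-0.99) and Cxcl12 (-0.40, SE 0.27) lay below 0. The limma adjusted p was 0.48 or more for each of these genes.

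Interferon-stimulated genes were split evenly, with 12 of 23 above 0 and a median of 0.05, or -0.05 without 2w-WD replicate 1. Ddx58, the RNA sensor RIG-I, differed by 0.57 (SE 0.26), Ifit1 by 0.63 (SE 0.41) and Bst2, tetherin, by -0.85 (SE 0.37). MHC class II genes had 0 of 9 at an unadjusted p under 0.05. In the list of alternative activation, Chil3 and Retnla, the secreted protein FIZZ1, lay above 0. Retnla read between 4.5 and 5.14 in CHOW and 8.38, 5.53, 4.98, 6.29 and 4.48 in 2w-WD, with the height of replicate 1 setting its mean (1.09, SE 0.61). Tgfbr2 and Tgfbr1, the receptors of transforming growth factor beta, lay below 0 (-1.54, SE 0.56 and -0.52, SE 0.23).

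Immediate early factors, which cells induce within minutes of a stimulus or of handling, had 16 of 18 below 0 and 3 at an unadjusted p under 0.05. Fos, the AP-1 subunit, read 11.33, 11.59, 11.90, 11.05 and 11.89 in CHOW and 11.17, 10.34, 10.64, 10.27 and 10.68 in 2w-WD (-0.93, SE 0.29). In Fos only 2w-WD replicate 1 reached into the CHOW range. Klf6 differed by -1.40 (SE 0.45), Egr1 by -0.29 (SE 0.56) and Jun by -0.26. On 2w-WD replicate 1 the list's mean was 0.26 above CHOW, and on the other 4 arrays it was 0.35 to 0.82 below (-0.66, -0.43, -0.82 and -0.35).

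Genes of the unfolded protein response and chaperones of the endoplasmic reticulum had 19 of 24 below 0 and 7 at an unadjusted p under 0.05, against 7.30% of all genes. Leaving out 2w-WD replicate 4 or CHOW replicate 4 gave 3 lower genes each, with medians of -0.19 and -0.21 against -0.26. Creld2, a stress-induced secreted protein, read 10.30, 9.69, 9.86, 10.67 and 10.40 in CHOW and 9.0, 8.35, 8.87, 8.22 and 9.97 in 2w-WD (-1.31, SE 0.35). Manf, a secreted stress factor, read 6.94, 6.44, 6.51, 6.52 and 6.13 in CHOW and 6.16, 5.63, 4.83, 4.49 and 5.98 in 2w-WD (-1.09, SE 0.29). In each, 1 array of 2w-WD lay within the CHOW range. Pdia6, a disulfide isomerase, read 9.28, 7.57, 7.50, 9.06 and 9.09 in CHOW and 8.26, 5.68, 7.62, 5.92 and 7.78 in 2w-WD (-1.45, SE 0.52). Hsp90b1, the chaperone GRP94 (-1.03, SE 0.41), Ddit3, the factor CHOP (-0.94, SE 0.41), and Calr, calreticulin (-0.43, SE 0.19), were also below 0. The sensors and factors of the pathway lay near 0: Atf6 -0.03, Eif2ak3 -0.06, Xbp1 0.00 and Atf4 -0.06.

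Several of these chaperone genes share a regulatory sequence, which is shown for Pdia6 and Creld2, the members with the widest differences. Manf has no promoter in the table used here. The endoplasmic reticulum stress element, searched on both strands as CCAAT, any 9 bases and then CCACG, is bound by ATF6 together with NF-Y. It was found in 7 of 21 promoters of this list, and in 37 of 32851 promoters in the RefSeq table of GRCm38.p6 (0.113%), each taken as 250 bases before the start site. The list was made of known genes of this pathway, so the share describes the list. In the sequences, capitals mark the element and every CCACG on either strand, and the last CCACG of each element overlaps it. The Creld2 promoter lies at chr15:88819396-88819645 on the plus strand, and its element, on the opposite strand, covers positions -126 to -108. The Pdia6 promoter lies at chr12:17266339-17266588 on the plus strand, with the element at -98 to -80.
Creld2: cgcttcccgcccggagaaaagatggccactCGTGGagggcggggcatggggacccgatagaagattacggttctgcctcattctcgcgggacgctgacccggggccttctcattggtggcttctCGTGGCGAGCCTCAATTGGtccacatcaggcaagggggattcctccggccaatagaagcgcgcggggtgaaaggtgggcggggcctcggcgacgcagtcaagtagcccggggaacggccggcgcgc
Pdia6: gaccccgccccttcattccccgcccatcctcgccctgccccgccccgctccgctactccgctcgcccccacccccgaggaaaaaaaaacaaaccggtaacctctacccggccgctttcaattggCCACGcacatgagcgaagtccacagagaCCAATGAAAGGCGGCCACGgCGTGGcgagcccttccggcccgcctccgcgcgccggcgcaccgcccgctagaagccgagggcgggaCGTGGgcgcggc

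The 7 list members that hold the element differed by -1.45 (Pdia6), -1.31 (Creld2), -1.03 (Hsp90b1), -0.43 (Calr), -0.35 (Hspa5), -0.22 (Dnajc3) and 0.12 (Canx). So 6 of 7 were below 0, beside 19 of 24 in the whole list and 61.2% of all genes. Hspa5, the master chaperone BiP, read 12.37, 12.31, 12.62, 12.77 and 12.99 in CHOW and 12.44, 12.16, 12.47, 11.56 and 12.69 in 2w-WD, with wide overlap. The promoters of Atf3, Fos, Gusb and Hexa held neither this element nor TGACGTCA, CCACG or CACGTG in the same window.

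Heat shock genes had 11 of 13 below 0 and 0 at an unadjusted p under 0.05. Of antioxidant genes 11 of 17 were below 0, a share near that of all genes, and 3 had an unadjusted p under 0.05, the glutathione peroxidases Gpx1 (-0.45, SE 0.14) and Gpx4 (-0.30, SE 0.12) and the thioredoxin Txn1 (-0.54, SE 0.20). Gpx1 lay between 13.20 and 13.78 in CHOW and between 12.70 and 13.33 in 2w-WD.

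Iron and heme handling, by which macrophages recycle red cells and withhold iron, had 12 of 15 below 0 and the lowest median of all lists, -0.58. Ireb2, the iron regulatory protein that adjusts ferritin and transferrin receptor, read 6.71, 6.41, 6.16, 7.13 and 6.16 in CHOW and 6.05, 5.59, 5.69, 6.04 and 5.82 in 2w-WD, without overlap (-0.68, SE 0.24). Slc11a1, the phagosomal metal transporter NRAMP1, read 12.15, 12.54, 12.16, 12.24 and 11.79 in CHOW and 11.67, 10.96, 12.20, 9.93 and 11.69 in 2w-WD (-0.89, SE 0.32). Slc40a1, the iron exporter ferroportin, differed by -1.15 (SE 0.64), Hmox1, heme oxygenase, by -0.91 (SE 0.48) and Blvrb, a biliverdin reductase, by -1.02 (SE 0.47). Fth1, the ferritin heavy chain, differed by -0.10. Without 2w-WD replicate 4 the median of the list was -0.37.

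Genes of protein synthesis and breakdown differed by small amounts. Cytosolic ribosomal proteins had 18 of 23 below 0 and a median of -0.18, which was -0.03 without 2w-WD replicate 4, with Rps3 apart in that its groups did not overlap (14.07 to 14.31 in CHOW, 13.33 to 14.02 in 2w-WD). Mitochondrial ribosomal proteins had 22 of 26 below 0 (median -0.37) and 2 at an unadjusted p under 0.05, a share near the 7.30% of all genes. They were Mrps14 (-1.30, SE 0.50) and Mrpl9 (-0.98, SE 0.44). Proteasome subunits had 22 of 26 below 0 (median -0.41), where the catalytic subunit Psmb5 read 10.73, 10.93, 10.54, 10.81 and 10.38 in CHOW and 10.38, 9.48, 10.08, 8.73 and 10.24 in 2w-WD (-0.89, SE 0.30). Only 2w-WD replicate 1 met the CHOW range of Psmb5, at its lower edge. The proteasome median was -0.18 without 2w-WD replicate 4, with 1 lower call in place of 3. Splicing factors, by contrast, had a median of -0.03, and of autophagy genes 14 of 21 were below 0, with Gabarap at -1.02 (SE 0.41) and Map1lc3a at 0.49 (SE 0.17). The autophagy median of -0.15 was -0.02 without 2w-WD replicate 4.

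Genes of membrane traffic, adhesion and the cytoskeleton also lay mostly below 0. Vesicle traffic had 17 of 22 below 0 and 7 at an unadjusted p under 0.05, among them Stx7, a syntaxin of late endosome fusion (-0.50, SE 0.18), while Vps41 of the HOPS tether lay at 1.02 (SE 0.37). The other 2 probe sets of Vps41 above the filter went the other way. Of actin genes, Vasp, which lengthens filaments, read 6.69, 5.98, 5.93, 5.49 and 5.51 in CHOW and 5.05, 5.25, 5.38, 4.55 and 5.44 in 2w-WD, without overlap (-0.79, SE 0.23). Actb, often used as a reference gene, differed by 0.06. Integrins had 12 of 14 below 0, with Itgb3 at -1.28 (SE 0.50), Vcl, the adhesion protein vinculin, at -1.05 (SE 0.37) and Itgb1 at 0.24. Of 5 lower calls among integrins, leaving out 2w-WD replicate 4 gave 2.

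Matrix proteases and their inhibitors had 11 of 15 below 0. Adam17, the sheddase of tumour necrosis factor, read 10.53, 9.72, 10.18, 10.71 and 9.66 in CHOW and 9.37, 9.01, 9.07, 5.39 and 9.72 in 2w-WD (-1.65, SE 0.61), so replicate 4 alone widened a smaller gap. Mmp3, stromelysin, differed by -1.33 (SE 0.54) and Mmp9, a gelatinase of macrophages and neutrophils, by 0.87 (SE 0.39). The median of the list was -0.44 with all arrays and -0.10 without 2w-WD replicate 4.

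Cell cycle genes showed no common direction. Of 20, 9 were above and 11 below 0, with Mki67 at -0.05 and Top2a at -0.02. Pcna (-1.12, SE 0.40) and Ccne1 (-1.05, SE 0.38), genes of the start of DNA replication, had an unadjusted p under 0.05. Apoptosis genes had 11 of 14 below 0 and 1 at an unadjusted p under 0.05, a share near that of all genes: Bid, a killer protein of the BCL2 family (-0.56, SE 0.24).

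Energy metabolism, with chemokines and fatty acid oxidation, was among the few processes on the higher side. Respiratory chain and ATP synthase subunits had 25 of 36 above 0 and a median of 0.19, with 5 at an unadjusted p under 0.05, among them Ndufs8 (0.46, SE 0.20) and Ndufb10 (0.63, SE 0.28) of complex I and Cox5a of cytochrome oxidase (0.55, SE 0.24). The citrate cycle had 11 of 19 above 0 and 4 at an unadjusted p under 0.05. Mdh1, a malate dehydrogenase, read 12.50, 13.36, 13.51, 13.08 and 14.07 in CHOW and 14.03, 13.95, 13.79, 13.80 and 13.77 in 2w-WD (0.56, SE 0.20). CHOW replicate 5 held the highest value of Mdh1 of all 10 arrays. The heart muscle list is given beside these genes, and its part in their differences was not tested beyond the fits below. On 2w-WD replicates 1 and 2 the respiratory chain stood 0.90 and 0.46 above CHOW and the heart muscle list 2.67 and 1.85, while on 2w-WD replicates 3 to 5 the respiratory chain stood at -0.13, -0.24 and -0.20 and heart muscle at 0.28, 0.50 and 0.19. On CHOW replicate 1 heart muscle stood at 1.30, the respiratory chain at 0.10 and the citrate cycle at 0.01, so the lists did not move together on every array. Adding each array's heart muscle mean to the model gave a median of -0.08 for the respiratory chain and -0.17 for the citrate cycle. Without 2w-WD replicate 1 these medians were 0.02 and -0.08, so the lean of both lists rested on that array.

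Glycolysis, which inflammatory macrophages rely on, had a median of -0.04, or 0.07 without 2w-WD replicate 4. Egln3, an oxygen-sensing hydroxylase, read between 5.53 and 5.98 in CHOW and between 6.08 and 6.80 in 2w-WD, without overlap (0.54, SE 0.19). Purine synthesis had 9 of 15 below 0 and a median of -0.43, or -0.26 without 2w-WD replicate 4, so that Gart (1.65) stood at the far end from its partners Paics (-0.48), Ppat (-0.35) and Gmps (-0.43). In the circadian list 7 of 13 were above 0, with a median of 0.15 that was -0.13 without 2w-WD replicate 1, and Dbp was the 1 member at an unadjusted p under 0.05. Its relatives Tef (-0.33) and Hlf (0.22) and the repressor Nfil3 (-1.41), which competes for the same sites, differed by amounts within their spread.

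Markers of other cell types varied widely among arrays of the same group. The heart muscle list had 15 of 18 above 0, 5 at an unadjusted p under 0.05 and a median of 1.13, and its mean ran from 6.68 to 10.42 in CHOW and from 9.31 to 11.79 in 2w-WD. Members diverged widely. Myl7, the atrial myosin light chain, read 13.29, 13.25, 12.49, 8.11 and 7.73 in CHOW and 14.00, 12.16, 13.41, 13.59 and 13.57 in 2w-WD, low only on CHOW replicates 4 and 5. Myh7, the ventricular myosin, read 9.60, 7.64, 7.24, 4.98 and 11.69 in CHOW and 11.91, 12.07, 5.44, 7.81 and 6.47 in 2w-WD, high on CHOW replicate 5 and 2w-WD replicates 1 and 2. Without CHOW replicate 4 the list's median was 0.57. The part of heart muscle in the differences of other genes was not tested beyond the covariate: with it 846 genes were lower and 250 higher at an unadjusted p under 0.05, and 0 passed adjustment.

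Neutrophil genes had 5 of 6 above 0 and a median of 0.44. S100a9, a subunit of calprotectin, read 5.78, 5.48, 5.17, 7.02 and 5.79 in CHOW and 4.70, 5.36, 8.13, 5.95 and 10.39 in 2w-WD, and S100a8, its partner, was high on the same 2 arrays (13.76 and 13.79). The list's mean stood 1.29 and 1.67 above CHOW on 2w-WD replicates 3 and 5 and between -0.47 and 0.07 on the other 3. Of the other members, Mmp9 differed by 0.87 (SE 0.39), Mmp8 by 0.15 (SE 0.53), Ngp by 0.03 (SE 0.35) and Csf3r by -0.29 (SE 0.38). Mpo, Elane, Camp and Cxcr2 were too dim to be tested. Adipocyte markers followed yet other arrays: Adipoq read 9.93 on 2w-WD replicate 1 and 8.52 on replicate 4, and between 4.33 and 6.58 on the other 8 arrays. Smooth muscle genes had 7 of 10 below 0, or 5 without 2w-WD replicate 4, among them Myh11 (-0.62, SE 0.27) and Tagln (-1.16, SE 0.54), which read 9.25 on CHOW replicate 1 and between 5.75 and 7.43 elsewhere. Endothelial genes had 6 of 8 below 0, with Eng at -1.09 (SE 0.48) and Vcam1 at -0.55 (SE 0.23). Their median of -0.27 was -0.08 without 2w-WD replicate 4, with 0 lower calls. Second probe sets of Vcam1, P2rx7, Tnfaip3 and Ddx58 above the filter went the other way from the values given for these genes. So did 1 further probe set each of Clcn7 (0.17), Slc38a9 (0.28), Lin7c (0.08) and Scd2 (0.08). The remaining probe sets of these genes above the filter kept the direction. They gave -0.23 for Clcn7, -0.61, -0.45 and -0.34 for Slc38a9, -0.26 for Lin7c and -0.4 for Scd2. Further probe sets of Cep83 (-0.07), Ccne1 (-0.06), Galc (0) and Camk1d (0.07 and 0.12) differed little. These are examples, as further probe sets are not given for every named gene. Fibroblast genes had 7 of 12 below 0, with Fn1 and Col1a1 (-0.79, SE 0.31), and lymphocyte and dendritic cell lists had 0 members at an unadjusted p under 0.05. Cd3e, the T cell receptor subunit, differed by -0.61 (SE 0.44). Acta2, the smooth muscle actin, averaged 13.53 in CHOW and 13.23 in 2w-WD. Pecam1 of endothelium (5.07 and 5.34) and the cytokine Tnf (5.45 and 5.26) lay under the level needed for testing.

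**Figure D4:**
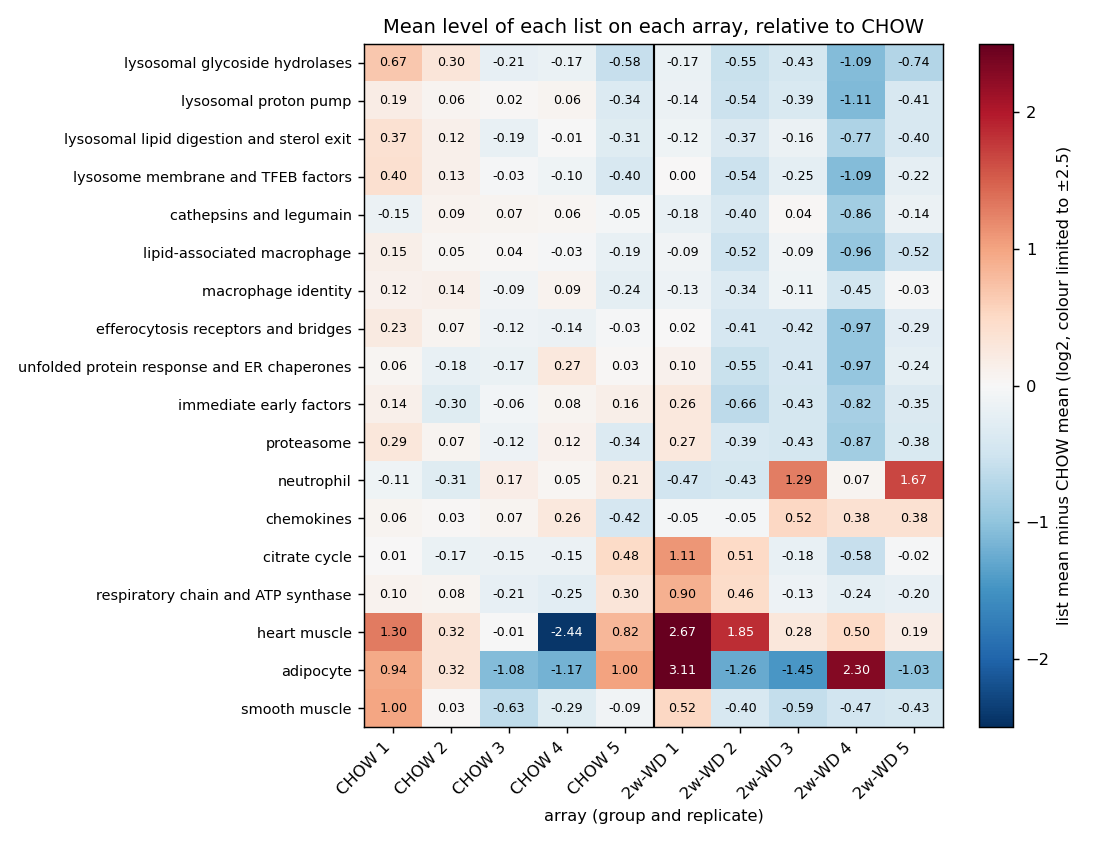
Mean level of selected lists on each of the 10 arrays (columns) relative to the CHOW mean, in log2 units (red above, blue below, colour limited to ±2.5). The lysosomal rows are lowest on 2w-WD replicate 4, the neutrophil row is high on 2w-WD replicates 3 and 5, and the heart muscle row is high on 2w-WD replicates 1 and 2 and low on CHOW replicate 4.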

How the data were processed

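Affymetrix arrays of 15 samples were used as the authors deposited them, as 1 linear intensity for each of 45037 probe sets. Summarisation, background correction and normalization are not given in the sources used here. Probe sets were named through the array's GEO annotation: 34945 had 1 gene, 932 several and 9160 none here. Intensities were turned into log2(intensity + 16), so differences of dim genes are understated. Each of 18193 genes took its probe set with the highest mean over 15 arrays, and 11925 genes with a mean at or above the median of all probe sets (log2 5.66) were tested. The linear model of limma 3.58.1 (R 4.3.3, lmFit and eBayes with trend, two-sided) was fitted to all 15 arrays and adjusted by Benjamini-Hochberg. The code was tested on simulated data. No counting depth exists for arrays, and the number of arrays limits the precision.

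Members and lists were chosen with earlier results of these data known. Named genes were the 12 per direction with the smallest p, the 6 widest without overlap, up to 4 per list by p and a standing set of markers as far as the annotation here names them. Other members were named after their values were seen, and genes with clone or accession names were counted without a name. Promoters came from RefSeq (GRCm38.p6), and of the promoters chosen by the naming rule, the pair that held a searched motif is printed. Arrays with the same replicate number in their titles were not paired in the main fit. Correlations of their deviations ran from -0.126 to 0.477, and so few values cannot settle whether the numbers pair the samples.

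Alternatives were other pseudocounts, filters, scalings, probe set rules, array weights, the 10 arrays alone, a replicate block and leaving out each array. Of 6515 further probe sets above the filter, 56.4% had the direction of the probe set used, and 64.9% of the 661 for genes at an unadjusted p under 0.05.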

Additional observations from a re-analysis of the deposited data

Results flagged for a closer look

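Among 210 groups of 5 arrays (named genes and list means), 15 held an array far from the others (7.14%), where chance gives about 1 in 20. In CHOW, Gart read 5.51 on replicate 5 (6.77 to 7.04 on the other arrays), Plpp6 5.66 on replicate 1 (6.45 to 6.64), Atp6v1h 8.72 on replicate 1 (5.97 to 6.62), Abca1 11.72 on replicate 1 (12.54 to 12.76) and Myh6 9.98 on replicate 4 (13.81 to 14.50). In 2w-WD, Acta2 read 13.38 on replicate 5 (13.17 to 13.22), Cd36 8.84 on replicate 4 (11.35 to 11.85) and Lipa 12.17 on replicate 4 (13.20 to 13.44).

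Of the list means, resident macrophage genes stood at 7.61 on CHOW replicate 3 (7.90 to 7.98 on the other arrays) and at 9.27 on 2w-WD replicate 1 (7.64 to 7.93). B cell genes stood at 7.24 on CHOW replicate 2 (6.39 to 6.58) and Toll-like receptors at 7.23 on the same array (7.59 to 7.67). Citrate cycle genes stood at 10.87 on CHOW replicate 5 (10.22 to 10.40). On 2w-WD replicate 1, smooth muscle genes stood at 9.0 (7.89 to 8.08) and sterol biosynthesis at 7.96 (6.92 to 7.19).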

How the results depend on the processing

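No setting called a gene: limma found 0 at an adjusted p under 0.05 in each, with the smallest adjusted p from 0.0743 to 0.827. At an unadjusted p under 0.05 the higher genes numbered 505 without a filter, 168 with a filter at 100, 512 under quantile normalization, 177 with the 10 arrays alone and 444 with each array's share of bright probe sets in the model (added after seeing the data). The lower genes numbered 534 with the 10 arrays alone and 371 without both CHOW replicate 4 and 2w-WD replicate 4 (also added). Leaving out 1 array gave 212 to 422 higher genes, 464 to 1753 lower genes and a median difference of -0.16 to -0.05. Without 2w-WD replicate 4 the higher genes made up 42.1% of those at an unadjusted p under 0.05, under quantile normalization 34.1% and with all arrays 25.3%. With the replicate block 335 genes were higher and 1149 lower, and 0 passed. CHOW replicates 1 and 3 alone correlated best with their own number.

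Of 1200 gene values under alternatives 1167 kept their sign and 33 in 6 genes did not. With all arrays or both replicates 4 left out these were Atp6v1h (0.16 with a pseudocount of 1, 0.22 with quantile), Il1b (0.01 with a pseudocount of 64, 0.12 with quantile, 0.02 with median centring, 0.19 with array weights, 0.08 with the heart muscle covariate), Adgre1 (0.01 with quantile, 0.01 with median centring, 0.03 with weights, 0.06 with the covariate, 0.05 without both replicates 4), Csf1r (0.04 with quantile, 0.02 with median centring, 0.03 with averaged probe sets, 0.02 with the covariate, 0.00 without both) and Msr1 (0.06 with quantile, 0.06 with the covariate, 0.13 without both). The cause was not tested. Leaving out 1 array gave Abca1 -0.08 to 0.18, Il1b -0.19 to 0.15, Adgre1 -0.10 to 0.05, Csf1r -0.09 to 0.08 and Msr1 -0.34 to 0.05, so these genes have no settled direction. List medians moved by less than the larger group SD of the list's mean in 1735 of 1739 cases. That margin was wide for lists that varied among arrays, and it did not look at sign. Medians changed sign in several lists. The main and lowest values were 0.18 and -0.04 for resident macrophage genes and 0.21 and -0.35 for adipocyte genes. They were 0.15 and -0.13 for the circadian list, 0.22 and -0.27 for fatty acid oxidation and 0.14 and -0.17 for the citrate cycle. No median could be given for erythroid genes with a filter at 100.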
